A study of Mus musculus with 2 samples.

Results

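A set of 10 genes of immune checkpoints and T cell costimulation was followed through single-cell RNA profiles of inflamed mouse skin: the ligand gene Cd274, the inhibitory receptor genes Pdcd1, Ctla4, Lag3 and Tigit, the costimulatory receptor genes Icos, Tnfrsf4, Tnfrsf18 and Tnfrsf9, and Foxp3. They were chosen by symbol, and all 10 of 10 were found among the 55353 gene symbols of the files. The skin was taken from the back of C57BL/6 mice at 7 weeks of age. The first library came from mice given Shi-Bi-Man together with imiquimod (the combination library), and the other from mice given imiquimod without Shi-Bi-Man (the imiquimod library). Imiquimod, which both groups received, activates a Toll-like receptor and is used to bring on skin inflammation that resembles psoriasis. Skin without imiquimod was not analysed here, and the labels do not say how many mice went into a library. Each group had 1 library, so the values below are differences between 2 libraries, with no measure of the spread between animals and no p-values.

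T cells need a signal through their antigen receptor and a second one through costimulatory receptors, of which CD28 and ICOS bind the B7 family and OX40 (Tnfrsf4), GITR (Tnfrsf18) and 4-1BB (Tnfrsf9) belong to the tumour necrosis factor receptor family. Checkpoint receptors work against this: PD-1 (Pdcd1) is engaged by PD-L1 (Cd274) and PD-L2, CTLA-4 takes CD80 and CD86 away from CD28, LAG-3 binds MHC class II, and TIGIT competes for the nectin family ligands PVR and NECTIN2. FOXP3 is the transcription factor of regulatory T cells, which carry CTLA-4, GITR and OX40. Mouse skin also holds many gamma delta T cells: dendritic epidermal T cells that live between keratinocytes, and dermal cells that make IL-17 and drive the response to imiquimod.

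Several of the genes are neighbours on their chromosomes. On GRCm38, in the GENCODE annotation, Ctla4 (chr1:60887000-60915832) and Icos (chr1:60977927-61000320) lie on the same strand, 62094 bases apart, with Cd28 113640 bases before Ctla4. Tnfrsf4 (chr4:156013843-156016612) and Tnfrsf18 (chr4:156026164-156028895) are 9551 bases apart on the plus strand, and Cd274 (chr19:29367455-29388095) lies 22823 bases before Pdcd1lg2, the gene of PD-L2. Of the 10 genes, 8 matched a RefSeq promoter of GRCm38.p6 (all but Lag3 and Icos). The 250 bases before the start are shown for Cd274, Tnfrsf4 and Tnfrsf18, the genes followed below in T cells and in skin cells of other types. They read 5′ to 3′ on the strand of the gene, and capitals mark the match of the gamma-activated sequence.
Cd274 (chr19:29367188-29367437, plus strand): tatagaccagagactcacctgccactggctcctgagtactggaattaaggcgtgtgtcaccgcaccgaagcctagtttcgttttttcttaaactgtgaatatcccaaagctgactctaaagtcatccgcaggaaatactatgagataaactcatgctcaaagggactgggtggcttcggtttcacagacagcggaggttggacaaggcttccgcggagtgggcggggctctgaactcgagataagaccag
Tnfrsf4 (chr4:156013445-156013694, plus strand): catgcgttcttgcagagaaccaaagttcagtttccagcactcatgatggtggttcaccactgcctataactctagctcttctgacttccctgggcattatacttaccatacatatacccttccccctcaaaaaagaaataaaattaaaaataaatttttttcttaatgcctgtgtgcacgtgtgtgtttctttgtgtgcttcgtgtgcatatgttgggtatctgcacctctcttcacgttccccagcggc
Tnfrsf18 (chr4:156026072-156026321, plus strand): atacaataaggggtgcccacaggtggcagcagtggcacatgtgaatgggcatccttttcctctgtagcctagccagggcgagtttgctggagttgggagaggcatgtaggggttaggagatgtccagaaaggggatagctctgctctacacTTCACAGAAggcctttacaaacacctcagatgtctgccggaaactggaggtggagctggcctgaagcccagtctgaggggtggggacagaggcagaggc
In all, 6 motifs were searched on both strands of 32851 promoters of this length. The gamma-activated sequence TTCNNNGAA was in 7.02% of them and matched Tnfrsf18, 99 bases before the RefSeq start. That start lies inside the GENCODE span of Tnfrsf18 given above, so the match does too. The same motif matched 1 of 2 Foxp3 promoters (139 bases before the start) and 1 of 2 Tnfrsf9 promoters (136 bases), which are not printed here. The interferon-stimulated response element core GAAANNGAAA (2.98% of promoters), the AP-1 motif TGANTCA (6.75%), the RUNX core TGTGGT and the forkhead core TGTTTAC (3.17%) matched none of the 3, while the AP-1 motif matched that Tnfrsf9 promoter and the RUNX core matched Tigit. The NFAT core GGAAA, in 55.6% of promoters and not capitalised here, matched once in Cd274, once in Tnfrsf4 and 2 times in Tnfrsf18. A match describes these letters only, and a missing match says nothing of a factor's binding elsewhere.

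After filtering, 7863 cells of the combination library and 11019 of the imiquimod library remained, from 20837259 and 28920316 counts over 8054 and 11316 barcodes. Clusters were formed without the 10 genes and without the wider lists used below, and names such as T and NK-like rest on RNA markers alone. The T and NK-like class held 489 cells (6.22% of cells) in the combination library and 2485 (22.6%) in the imiquimod library, with medians of 779 and 1002 counts per cell and 12 of 12 class markers detected in both. RNA of other cell types was common in it: the 12 keratinocyte markers summed to 4937 CPM (counts scaled to a fixed total of the class) in the combination library and 3090 CPM in the imiquimod library, and the 7 fibroblast markers to 3142 and 1054 CPM. Their part in the class ratios was not tested beyond leaving cells out: 71 of 489 and 716 of 2485 T and NK-like cells held counts of fewer than 2 marker genes of each of the keratinocyte, fibroblast and myeloid lists, and in those cells alone the ratio defined below was 1.72 for Tnfrsf4, -1.76 for Pdcd1 and -1.23 for Icos. Both libraries held 49 barcodes in common, and leaving them out moved the ratio of Icos in T and NK-like cells to -0.58. Ratios below are log2 of CPM in the combination library over CPM in the imiquimod library, with 0.5 added to each count, and all intervals are 95% intervals of counting error only. A gene is called higher or lower past 1.5-fold with at least 20 counts in the class.

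Within the T and NK-like class the 10 genes did not move together. Of the 10, 6 were called higher in the combination library (Cd274, Lag3, Tigit, Foxp3, Tnfrsf4 and Tnfrsf18) and 2 lower (Pdcd1 and Icos), with a median ratio of 0.68, while over the 10328 genes measured in the class 19.5% were called higher and 17.0% lower, with a median of 0.04. The call for Icos stood at the edge of the threshold. Fewer carrying cells and less RNA per cell cannot be told apart in these class sums, and the mix of T cell subsets, described further on, differed widely between the libraries.

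**Figure D1:**
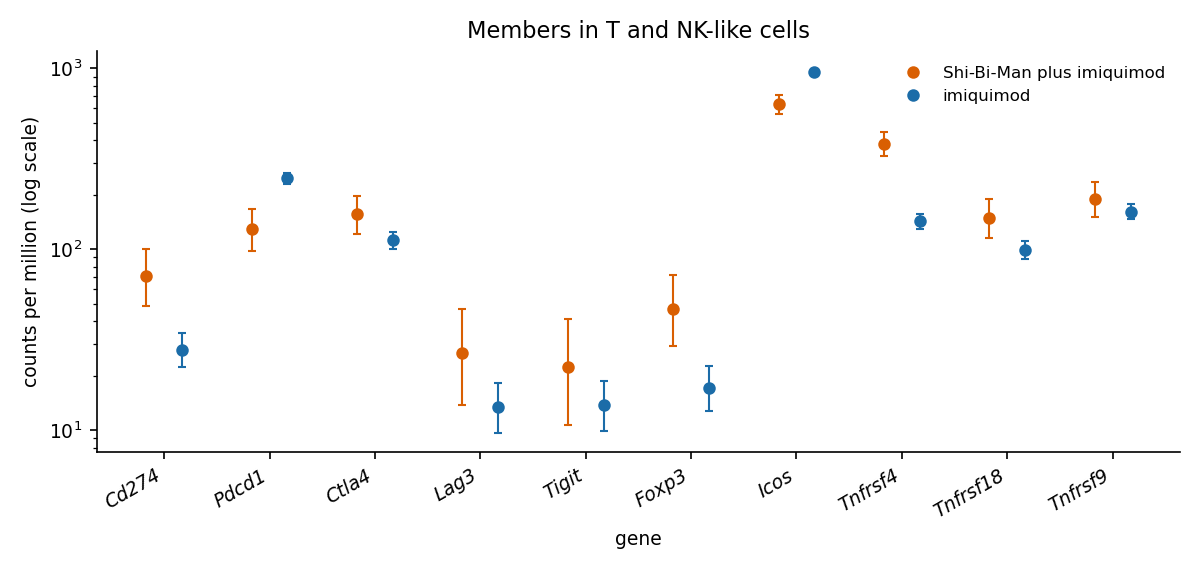
Level of each gene in T and NK-like cells, in CPM on a log scale, in the combination library (orange, left of each pair) and the imiquimod library (blue, right). Points are single libraries and bars are exact 95% Poisson intervals; Pdcd1 and Icos lie lower in the combination library and Tnfrsf4, Foxp3 and Cd274 lie higher.

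Among the inhibitory receptors, Pdcd1, which encodes PD-1, had 129 CPM (98.2 to 167, from 58 counts) in the combination library and 246 CPM (229 to 265, from 734 counts) in the imiquimod library, a ratio of -0.92 (-1.34 to -0.54). Its intervals in the libraries did not overlap. Ctla4 had 156 CPM (122 to 197) in the combination library and 112 CPM (100.4 to 125) in the imiquimod library, a ratio of 0.49 (0.08 to 0.85), under the threshold for a call. Lag3 stood at 26.8 CPM from 12 counts in the combination library and 13.4 CPM from 40 counts in the imiquimod library, with a ratio of 1.04 (-0.07 to 1.95). For Tigit the values were 22.3 CPM from 10 counts and 13.8 CPM from 41 counts, in the same order, with a ratio of 0.75 (-0.47 to 1.72). The intervals of Lag3 and Tigit hold 0, so at these counts neither ratio was separated from no difference.

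The costimulatory receptors divided. Icos had 633 CPM (562 to 711, from 284 counts) in the combination library and 955 CPM (921 to 991, from 2846 counts) in the imiquimod library, a ratio of -0.59 (-0.77 to -0.42). Tnfrsf4, the OX40 gene, went the other way, with 384 CPM (328 to 445) in the combination library and 143 CPM (129.7 to 157) in the imiquimod library, a ratio of 1.43 (1.16 to 1.68). Tnfrsf18, the GITR gene, had 149 CPM (116 to 189.7) and 99.0 CPM (88.0 to 111) in that order, a ratio of 0.60 (0.19 to 0.98). Tnfrsf9, the 4-1BB gene, differed little, with 189.5 CPM (151 to 234) in the combination library and 161 CPM (147 to 177) in the imiquimod library, and its ratio of 0.24 (-0.12 to 0.57) holds 0.

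Foxp3 had 21 counts in 12 of 489 cells of the combination library and 51 counts in 30 of 2485 cells of the imiquimod library, or 46.8 CPM (29.0 to 71.6) against 17.1 CPM (12.7 to 22.5), a ratio of 1.47 (0.64 to 2.21). Of T and NK-like cells, 2.45% (1.27 to 4.25) held a Foxp3 count in the combination library and 1.21% (0.816 to 1.72) in the imiquimod library. The Clopper-Pearson intervals of these shares overlap, and after thinning each cell to 500 counts the shares were 1.84% and 0.765%. Fibroblast-like cells, which should lack Foxp3, held it in 0.0445% and 0.0972% of cells. Cd274 itself was also measured in the class, at 71.4 CPM (48.8 to 101) in the combination library and 27.9 CPM (22.2 to 34.5) in the imiquimod library, with a ratio of 1.37 (0.72 to 1.96).

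The shares of cells with a count were compared after each cell was thinned to 500 counts. Icos was found in 19.6% (16.2 to 23.4) of combination T and NK-like cells and 32.0% (30.1 to 33.8) of imiquimod ones, and without thinning in 26.2% and 47.7%. Pdcd1 was found in 5.32% (3.50 to 7.69) and 9.66% (8.52 to 10.9) of cells in that order, and in 7.77% and 19.8% without thinning. Tnfrsf4 was found in 9.61% (7.15 to 12.6) of combination cells and 3.74% (3.03 to 4.57) of imiquimod cells, and in 10.6% and 5.92% without thinning. Fibroblast-like cells, which should lack these receptors and had medians of 2118.5 and 2012.5 counts per cell, held Icos counts without thinning in 0.356% of combination cells and 3.21% of imiquimod cells, Pdcd1 counts in 0.0445% and 0.632%, and Tnfrsf4 counts in 0.489% and 1.12%. The shares in T and NK-like cells lay above those in fibroblast-like cells for all 3 genes in both libraries, and the fibroblast-like shares were higher in the imiquimod library.

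The T and NK-like cells fell into 8 subclusters whose shares differed between the libraries. IL-17-type gamma delta T-like cells made up 14.7% (11.7 to 18.2) of the class in the combination library and 46.1% (44.1 to 48.1) in the imiquimod library. Dendritic epidermal-type gamma delta T-like cells made up 24.9% (21.2 to 29.0) and 4.51% (3.73 to 5.40) in that order. Subcluster 0, unnamed, made up 35.8% (31.5 to 40.2) of the class in the combination library and 21.2% (19.6 to 22.9) in the imiquimod library. Its 10 leading genes were Tnfrsf4, Klrg1, Ctla4, Ifi27l2a, Cd28, Tnfrsf18, Krt10, Trac, Hspa1b and Cd81, so they include the keratinocyte gene Krt10, at 2068 CPM in the combination library and 679 CPM in the imiquimod library. Genes of both T cell receptor types were read in it, Trac at 659 and 564 CPM and Trdc, of the gamma delta receptor, at 1329.7 and 1536 CPM, combination first. Subcluster 6, led by Ccl5, Gzma and Cd8b1, held 65 and 117 cells, and cycling cells numbered 5 and 176. Subcluster 3, led by Cwc25, Irs2 and Crem, held 30 and 218 cells, and subcluster 5, led by Gzmc and Xcl1, 20 and 190 cells. In the IL-17-type cells Trdc had 2384 and 4705 CPM and Trac 395 and 134 CPM, combination first. Over the whole class Trdc had 3012 and 3760 CPM. The 2 subclusters of the IL-17-type cells met 7 and 3 of 13 markers of the name. The second, with 52 combination cells, had 1822 CPM of Trdc and 483 CPM of Trac in the combination library. The gamma delta name is therefore less firm in that library. Trdc and Il17a were also read outside the IL-17-type cells. Subcluster 3 had 4214 and 4963 CPM of Trdc and 908 and 2112 CPM of Il17a, combination first. Cycling cells had 3117 and 5559 CPM of Trdc and 7965 and 6879 CPM of Il17a in the same order.

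The receptors were spread differently over the subsets. IL-17-type cells held 33.1% of Icos counts of the class in the combination library and 56.6% in the imiquimod library, and 32.8% and 63.5% of Pdcd1 counts. In the combination library subcluster 0 held as much of Icos (35.9%) and subcluster 3 as much of Pdcd1 (37.9%), against 14.97% and 12.1% in the imiquimod library. Tnfrsf4 came from subcluster 0, which held 81.4% of its counts in the class in the combination library and 80.3% in the imiquimod library, and Ctla4 followed with 75.7% and 55.1%. Tnfrsf18 was shared between subcluster 0, with 50.7% and 43.1% of counts, and other subsets: subcluster 6 held 17.9% and 3.05%, dendritic epidermal-type cells 14.9% and 4.41%, and subcluster 5 1.49% and 23.7%, combination first. Tnfrsf9 was carried by dendritic epidermal-type cells, with 36.5% of counts in the combination library and 6.86% in the imiquimod library, by subcluster 0, with 36.5% and 24.7%, and by IL-17-type cells, with 9.41% and 43.7%. Dendritic epidermal-type cells had 0 counts of Pdcd1, Ctla4 and Foxp3 in both libraries.

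**Figure D2:**
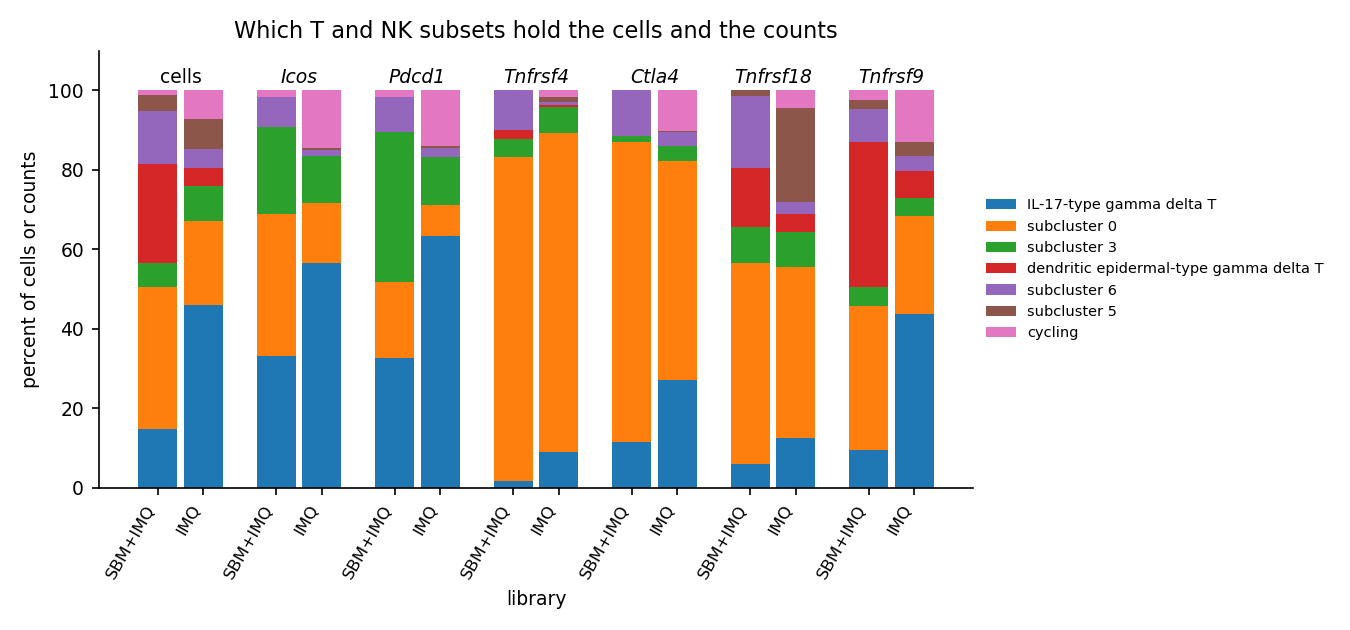
Percent of T and NK-like cells, and of the counts of 6 of the genes in that class, held by each subset in the combination library (SBM+IMQ, left bar of each pair) and the imiquimod library (IMQ, right bar). IL-17-type cells hold 14.7% of cells in the first and 46.1% in the second, and subcluster 0 holds 81.4% and 80.3% of Tnfrsf4 counts in the same order.

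The levels were then compared inside subsets. Of the subsets, 5 had at least 30 cells in each library, and 28 pairs of gene and subset had at least 20 counts. Of these pairs 11 were past 1.5-fold higher in the combination library and 1 lower, but 24 of the 28 intervals held 0, 4 lay above 0 and 0 below. Among all genes measured there, 25.3% were called higher and 24.7% lower in IL-17-type cells, 18.3% and 17.3% in subcluster 0, 22.3% and 24.8% in subcluster 3, 16.4% and 19.0% in subcluster 6, and 15.8% in each direction in dendritic epidermal-type cells. Within IL-17-type cells Icos had 1280 CPM (94 counts) in the combination library and 1216 CPM (1611 counts) in the imiquimod library, a ratio of 0.08 (-0.24 to 0.37). Pdcd1 there had 259 CPM (19 counts) and 352 CPM (466 counts) in that order, a ratio of -0.41 (-1.19 to 0.22). The IL-17-type cells pool 2 subclusters in different proportions: subcluster 1, led by Cd163l1 and Il22, held 20 combination and 661 imiquimod cells, and subcluster 2, led by 5830411N06Rik and Il17f, 52 and 484. In subcluster 2 Icos had 1208 CPM in the combination library and 842 CPM in the imiquimod library (0.53, 0.13 to 0.90) and Pdcd1 204.5 and 223 CPM (-0.067, -1.16 to 0.76). Subcluster 1, too small for a ratio, had 1478 and 1522 CPM of Icos and 408 and 457 CPM of Pdcd1. Over the pooled IL-17-type cells neither gene was called, although this subset supplied most of their counts in the imiquimod library.

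In subcluster 0 Tnfrsf4 had 854 CPM (140 counts) in the combination library and 616 CPM (342 counts) in the imiquimod library, a ratio of 0.47 (0.18 to 0.76) that is above 0 but under the threshold. Ctla4 there had 323 and 331 CPM, a ratio of -0.03 (-0.50 to 0.41), and Tnfrsf18 had 207 and 229 CPM, a ratio of -0.13 (-0.73 to 0.41), combination first. Outside subcluster 0 the Tnfrsf18 ratio was 1.11 (-0.99 to 2.44) in IL-17-type cells, 0.92 (-0.74 to 2.15) in subcluster 3 and 1.14 (-0.21 to 2.59) in subcluster 6, each past 1.5-fold with an interval that holds 0, and -0.51 (-1.87 to 0.78) in dendritic epidermal-type cells. Foxp3 had 128 CPM (21 counts) in the combination library and 81.0 CPM (45 counts) in the imiquimod library, a ratio of 0.68 (-0.16 to 1.44), and with at least 500 genes required per cell the ratio changed sign to -0.22. The other intervals above 0 were Tnfrsf4 in subcluster 6 at 2.71 (1.22 to 4.86, from 17 counts in 5 cells of the combination library and 4 counts in 4 cells of the imiquimod library), and Icos at 0.52 (0.09 to 0.90) and Pdcd1 at 0.96 (0.19 to 1.62) in subcluster 3, which had 30 combination cells. Under the 4 alternatives that gave them, the subcluster 3 ratios ran from -0.17 to 0.65 for Icos and from 0.12 to 0.96 for Pdcd1. Tnfrsf4 in subcluster 6 ran from 0.46 to 2.755 under 5 alternatives. In dendritic epidermal-type cells Tnfrsf9 had 357 CPM (31 counts) in the combination library and 420 CPM (33 counts) in the imiquimod library, a ratio of -0.23 (-0.99 to 0.52).

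With the 8 subclusters of the combination library weighted by their shares of class counts in the imiquimod library, most class ratios came close to 0. Icos then had a ratio of 0.00, Pdcd1 of -0.12, Ctla4 of -0.070, Lag3 of 0.066, Tigit of -0.056, Tnfrsf18 of -0.085 and Tnfrsf9 of 0.058. Tnfrsf4 kept a ratio of 0.50 and Foxp3 of 0.53, both under 1.5-fold, and only Cd274 remained past it, at 1.29. The Cd274 value rested on few counts: of 32 in combination cells, 5 were in subcluster 3 (30 cells), 5 in subcluster 5 (20 cells) and 1 in IL-17-type cells. In subcluster 0, with 13 combination and 23 imiquimod counts of Cd274, the interval of its ratio held 0. These weighted ratios carry no interval. Subcluster 1, subcluster 5 and the cycling cells entered them with 20, 20 and 5 combination cells, under the 30 required for a ratio. Their weights came from 661, 190 and 176 imiquimod cells, so a large part of each weighted value rests on few combination cells. Whether the mix accounts for the class differences was not tested.

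**Figure D3:**
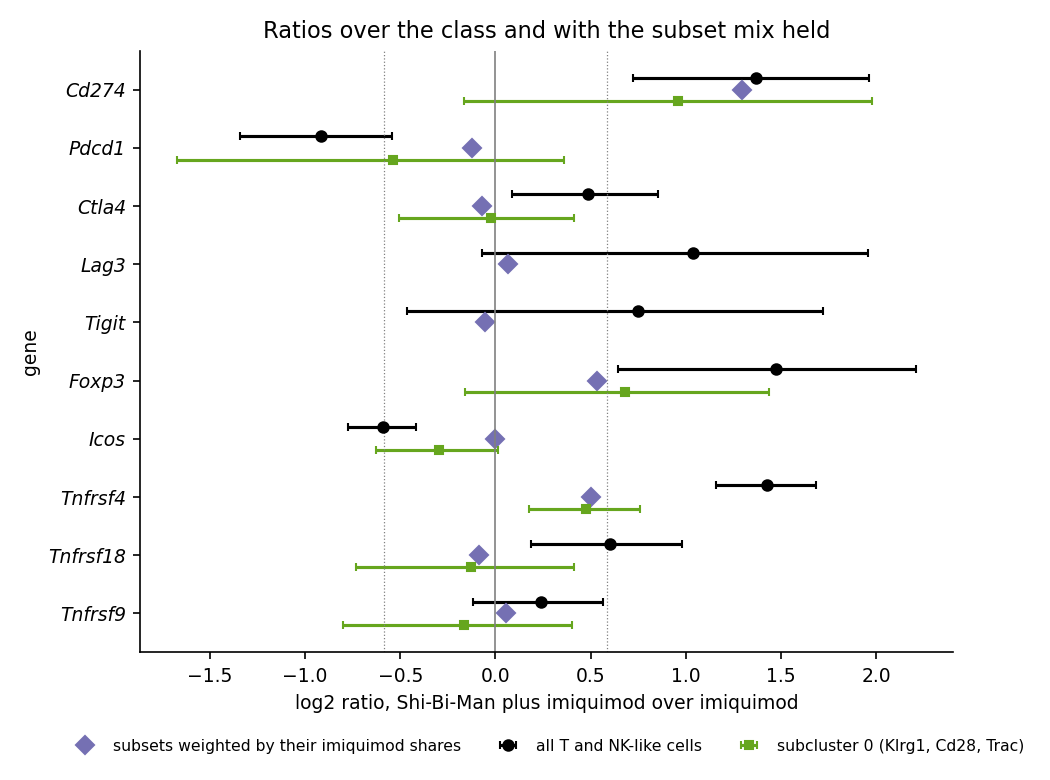
Log2 ratio of the combination library over the imiquimod library for each gene: over all T and NK-like cells (black circles with 95% counting intervals), with the subsets weighted by their shares of the imiquimod library (purple diamonds), and within subcluster 0 where the gene had at least 20 counts (green squares with intervals). Dotted lines mark 1.5-fold; with the mix held, all genes but Cd274 lie between them.

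Cells with a Foxp3 count were a small group. All 12 of the combination library and 26 of 30 of the imiquimod library lay in subcluster 0. Tnfrsf4 was found in 11 of the 12 combination cells and 22 of the 30 imiquimod cells, against 8.60% and 5.09% of T and NK-like cells without a Foxp3 count. Ctla4 was found in 9 of 12 and 19 of 30, Icos in 8 of 12 and 21 of 30, Il2ra, the gene of the high-affinity IL-2 receptor chain, in 8 of 12 and 15 of 30, and Trac, of the alpha beta T cell receptor, in 10 of 12 and 23 of 30. In cells without a Foxp3 count these shares were 5.24% and 6.44% for Ctla4, 25.2% and 47.5% for Icos, 11.7% and 20.1% for Il2ra, and 22.2% and 17.3% for Trac. Cd4 was found in only 1 of 12 and 6 of 30 cells with a Foxp3 count, Cd28 in 2 of 12 and 6 of 30, and Il17a in 0 of 12 and 5 of 30. Pdcd1 was found in 0 of 12 and 3 of 30. Lag3 and Tigit were also at 0 of 12, and in 1 and 2 of the 30 imiquimod cells. These cells had a median depth of 842 counts in the combination cells and 1046.5 in the imiquimod cells.

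By contrast, cells with a Pdcd1 count mostly carried Il17a, the gene of the cytokine IL-17A. Il17a was found in 23 of 38 such cells in the combination library and 407 of 492 in the imiquimod library, against 19.5% and 53.5% of T and NK-like cells without a Pdcd1 count. Icos was found in 20 of 38 and 318 of 492, and Trac in 9 of 38 and 65 of 492. Cells with a Pdcd1 count were deeper, with medians of 936 and 1192 counts against 765 and 958 in cells without, so the shares are not at matched depth.

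The wider lists gave the rest of the pathway in T and NK-like cells. Of 15 inhibitory receptor genes 9 were measured, 5 were called higher and 0 lower, with a median ratio of 0.61, where 19.5% of all genes of the class were called higher and 17.0% lower. Klrg1, an inhibitory lectin-like receptor, had 328 CPM in the combination library and 81.9 CPM in the imiquimod library (2.003, 1.70 to 2.30), but inside subcluster 0 its values were 451 and 391 CPM (0.21, -0.19 to 0.59). Klrc1, the NKG2A gene, had 219 and 90.6 CPM (1.27, 0.92 to 1.61), Cd200r1 17.8 and 5.37 CPM (1.77) and Vsir, the VISTA gene, 120.4 and 64.4 CPM (0.91), combination first. Of 12 costimulatory receptor genes 10 were measured, 3 were called higher and 2 lower. Cd2, an adhesion and costimulatory receptor, had 499.5 CPM in the combination library and 260.1 CPM in the imiquimod library (0.94, 0.72 to 1.16), Crtam had a ratio of 1.26 and Cd27 of 0.80, while Tnfrsf25, the DR3 gene, had 29.0 and 71.2 CPM (-1.24, -2.23 to -0.49). Cd28, the main costimulatory receptor gene, had 93.6 and 67.1 CPM with a ratio of 0.49 (-0.04 to 0.97), which holds 0.

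Of 15 regulatory T cell genes 14 were measured, 2 were called higher and 2 lower, with a median of 0.27, which is no larger a share than over all genes of the class (19.5% higher and 17.0% lower). Ccr8, a chemokine receptor of skin regulatory T cells, had 80.3 CPM in the combination library and 31.9 CPM in the imiquimod library (1.34, 0.74 to 1.90), and Il1rl1, the IL-33 receptor gene, 31.2 and 8.39 CPM (1.92, 0.84 to 2.89). In subcluster 0 Ccr8 had a ratio of 0.92 (0.06 to 1.71) and Ikzf2, the Helios gene, 0.69 (0.15 to 1.20). Over the class Ikzf2 had 144.9 and 115 CPM (0.34, -0.07 to 0.72). Il2ra had 209.6 and 273 CPM (-0.37, -0.70 to -0.069). The genes called lower were Itgae, the CD103 gene, with 428 and 662 CPM (-0.63, -0.85 to -0.42), and Ebi3, with 1 and 26 counts (-1.41, -7.33 to 0.64). Of 16 activation regulators all were measured, with Egr2 (0.84) and Nr4a2 (0.68) called higher and 1 called lower, the early activation marker gene Cd69, with 640 CPM in the combination library and 1042 CPM in the imiquimod library (-0.70, -0.88 to -0.53). Nfkbia, an inhibitor of NF-kB, had a ratio of -0.56, short of the threshold.

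Cd274 was measured across the classes of skin cells, since PD-L1 is carried by tissue cells and antigen-presenting cells as well as by T cells. In the combination library its levels ran from blood endothelial-like cells at 145 CPM through sebaceous-like cells at 82.9, macrophage and monocyte-like cells at 75.7, T and NK-like cells at 71.4 and lymphatic endothelial-like cells at 51.4 to keratinocyte-like cells at 36.1 and fibroblast-like cells at 14.2 CPM. In the imiquimod library sebaceous-like cells had 62.1 CPM, macrophage and monocyte-like cells 57.3, blood endothelial-like cells 43.7, lymphatic endothelial-like cells 29.6, T and NK-like cells 27.9, fibroblast-like cells 12.7 and keratinocyte-like cells 10.9 CPM. Langerhans-like cells had 13.5 CPM from 2 counts in the combination library and 18.5 CPM from 34 counts in the imiquimod library. Blood endothelial-like cells thus stood first in the combination library, with an interval (111 to 187.5 CPM) above that of sebaceous-like cells (67.6 to 100.6 CPM). In the imiquimod library their interval (32.4 to 57.6 CPM) overlapped those of sebaceous-like and of macrophage and monocyte-like cells. Keratinocyte-like and fibroblast-like cells had overlapping intervals in the imiquimod library. The keratinocyte-like class leaves out the unnamed cluster 20, which met 6 of 12 keratinocyte markers and held 254 imiquimod cells. Its Cd274 level in the imiquimod library, given under other observations, was above that of the class, so the last place of keratinocyte-like cells depends on this naming.

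Blood endothelial-like cells, 1 cluster led by Fabp4, Selp and Sele, had 59 Cd274 counts in 36 of 244 cells of the combination library and 50 counts in 40 of 483 cells of the imiquimod library, a ratio of 1.73 (1.17 to 2.31). Over the 7731 genes measured in the class 14.0% were called higher and 18.4% lower. The ratio lay between 1.59 and 2.09 under the 12 alternatives that gave it. After thinning to 500 counts, 9.43% (6.07 to 13.8) of combination endothelial-like cells and 1.66% (0.718 to 3.24) of imiquimod ones held a count. Without thinning the shares were 14.8% (10.6 to 19.8) and 8.28%, at median depths of 1248 and 1867 counts. No interval is given for the second of these, so the unthinned shares are not shown to be apart. Under the 2 alternatives, no thinning among them, the log2 ratio of shares ran from 0.84 to 1.17. Of these 2, 0 stayed within the interval of the value at 500 counts, so the size of this difference depends on the thinning. Markers of other cells moved in both directions here: the 12 T and NK markers summed to 249 CPM in the combination library and 707 CPM in the imiquimod library, the 12 myeloid markers to 108 and 251 CPM, the 12 keratinocyte markers to 2824 and 1761 CPM and the 7 fibroblast markers to 1856 and 809 CPM, and their part in the Cd274 ratio was not tested. As whole classes, keratinocyte-like and fibroblast-like cells had lower Cd274 levels than endothelial-like cells in both libraries. In the imiquimod library, however, keratinocyte clusters 4 (39 cells) and 16 (76 cells), described below, had higher values than endothelial-like cells.

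**Figure D4:**
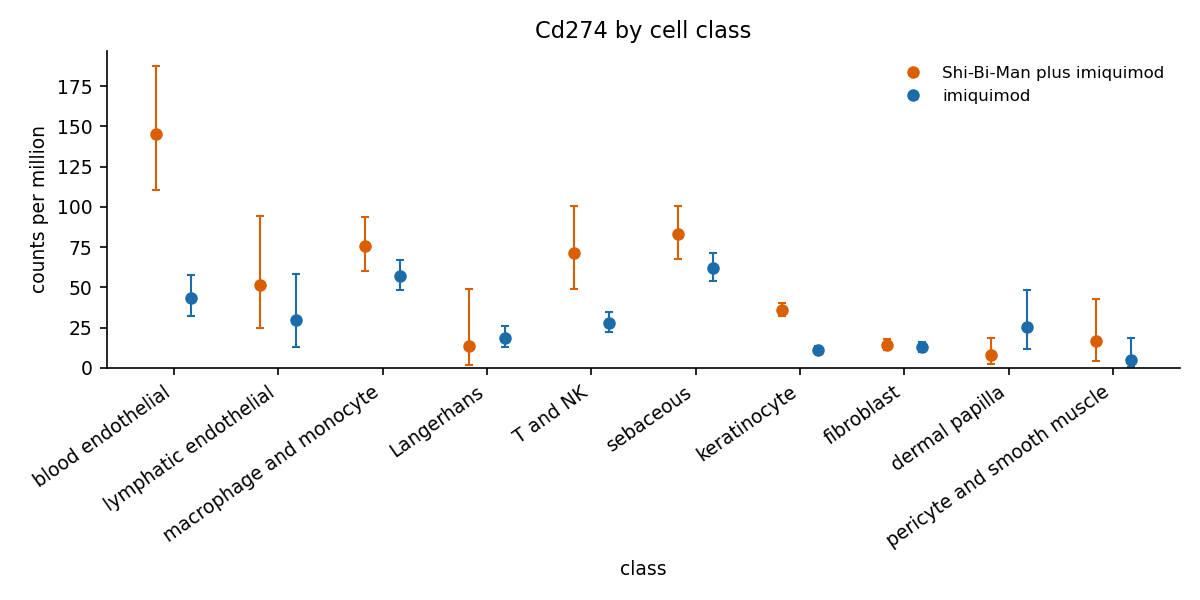
Cd274 level in 10 cell classes, in CPM, in the combination library (orange, left of each pair) and the imiquimod library (blue, right). Points are single libraries and bars are exact 95% Poisson intervals; blood endothelial-like cells have 145 and 43.7 CPM with intervals that do not overlap.

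Genes listed as upstream of Cd274 were read in the same cells. The 16 were genes of interferon, NF-kB and STAT3 signalling, together with Myc, Hif1a, Cmtm6 and Cmtm4. In blood endothelial-like cells 15 were measured, 5 were called higher and 1 lower, with a median of 0.31 where all genes had -0.03. Over all genes of this class 14.0% were called higher and 18.4% lower. Irf1, the interferon-induced factor that acts on Cd274, had 493 CPM in the combination library and 253 CPM in the imiquimod library (0.97, 0.70 to 1.23), Jak2 377 and 189.7 CPM (0.99, 0.68 to 1.30) and Socs3, a feedback inhibitor, 1806 and 828 CPM (1.13, 0.98 to 1.27), combination first. Among the ligands, 8 of 19 were measured there, 0 were called higher and 1 lower. Tnfsf9, the 4-1BB ligand gene, had 103.5 CPM in the combination library and 137 CPM in the imiquimod library (-0.39, -0.93 to 0.09), Pvr 91.2 and 85.7 CPM (0.10, -0.50 to 0.65) and Nectin2 116 and 135 CPM (-0.22, -0.73 to 0.25). Pdcd1lg2 had 0 counts in endothelial-like cells of both libraries.

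Macrophage and monocyte-like cells had 83 Cd274 counts in 59 of 764 cells of the combination library and 154 counts in 126 of 1607 cells of the imiquimod library, a ratio of 0.41 whose interval holds 0 and ends at 0.80. Cluster 2 of this class, led by Lyz1, Lyz2 and Mpeg1, had 103 CPM in the combination library and 70.5 CPM in the imiquimod library (0.56, 0.11 to 0.99), and cluster 10, led by Cd209f and Ccl8, 27.5 and 17.7 CPM (0.65, -0.64 to 1.88). Over the class 14.2% of all genes were called higher and 11.4% lower, with 15.8% and 13.8% in cluster 2 and 14.7% and 13.7% in cluster 10, and 4 of 16 upstream genes were called higher and 1 lower, with Irf1 at 0.97 (0.70 to 1.23). Of 19 ligands 13 were measured, 2 were called higher and 3 lower. Cd86, which binds CD28 and CTLA-4, had 282 CPM in the combination library and 193 CPM in the imiquimod library (0.55, 0.34 to 0.75), while Cd80, its partner, had 27.4 and 51.7 CPM (-0.90, -1.54 to -0.34). Icosl, the ICOS ligand gene, had 18.2 and 7.44 CPM from 20 counts each (1.29, 0.32 to 2.26), and Pdcd1lg2 11.9 and 7.44 CPM (0.69, -0.46 to 1.75). Tnfsf4, the OX40 ligand gene, had 0 counts in the combination library and 6 in the imiquimod library.

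Keratinocyte-like cells gave a ratio for Cd274 of 1.72 (1.34 to 2.12) over the class, from 283 counts in the combination library and 71 in the imiquimod library, but the ratio was below 0 in 3 of its 4 clusters. The class was made of different cells in each library: cluster 4, led by Krt77, Mt4 and Krt10, held 1240 cells in the combination library and 39 in the imiquimod library, and cluster 7, led by Cst6 and Defb6, held 182 and 765. Inside the clusters Cd274 had 38.9 CPM in the combination library and 71.5 CPM in the imiquimod library in cluster 4 (-0.94, -1.74 to 0.14), 1.56 and 4.65 CPM in cluster 7 (-1.03, -6.95 to 1.08), 16.3 and 11.6 CPM in the basal cluster 12 led by Krt5 (0.52, -0.69 to 1.57), and 65.4 and 90.5 CPM in cluster 16 led by Lor (-0.49, -1.31 to 0.44). All 4 intervals hold 0, and with clusters weighted by their imiquimod shares the ratio was -0.28. The class ratio was also smaller, though above 0, with the unnamed clusters 3, 15 and 20 added to the class, as given in the section on processing. Over the class 13.8% of all genes were called higher and 22.5% lower, with 18.6% and 35.2% in cluster 4, 25.0% and 10.8% in cluster 7, 15.1% and 14.4% in cluster 12 and 19.4% and 18.3% in cluster 16.

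Keratinocyte-like cells also carried Tnfrsf18 and Tnfrsf4, receptor genes otherwise read in T cells. Tnfrsf18 had 135 counts in 101 of 1993 combination cells and 499 counts in 320 of 1364 imiquimod cells, or 17.2 and 76.9 CPM (-2.15, -2.44 to -1.88). Only 17.1% of all Tnfrsf18 counts in the combination library and 22.5% in the imiquimod library came from T and NK-like cells. Tnfrsf4 had 6.64 CPM in combination keratinocyte-like cells and 31.6 CPM in imiquimod ones (-2.24, -2.72 to -1.80). Fibroblast-like cells had 2.91 and 7.30 CPM of Tnfrsf18 and 2.33 and 5.84 CPM of Tnfrsf4, below the keratinocyte-like intervals in both libraries, and over all genes measured in fibroblast-like cells 9.18% were called higher and 10.9% lower. Icos and Pdcd1, whose counts came mainly from T and NK-like cells, had only 3.19 and 8.17 CPM, and 0.511 and 3.39 CPM, in the keratinocyte-like class.

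Cluster by cluster the Tnfrsf18 difference was smaller in the clusters that held most of its counts. In cluster 7 Tnfrsf18 had 71.9 CPM in the combination library and 81.3 CPM in the imiquimod library (-0.16, -0.65 to 0.27), and in cluster 12 it had 57.8 and 76.5 CPM (-0.39, -0.95 to 0.11). Clusters 4 and 16, which made up most of the combination class, had low levels. Cluster 4 had 7.51 CPM (44 counts) in the combination library and 13.0 CPM (2 counts) in the imiquimod library (-1.10, -2.73 to 2.30). Cluster 16 had 9.13 CPM from 6 counts in the combination library and 37.3 CPM from 7 counts in the imiquimod library, about as far apart as the class values but too few counts for a call. Tnfrsf4 had 31.3 and 31.4 CPM in cluster 7 (0.03, -0.76 to 0.68), combination first. The basal cluster 12 was the exception, with 8.89 CPM from 6 counts in the combination library and 37.3 CPM from 77 counts in the imiquimod library (-1.96, -3.56 to -0.88). Weighted by the imiquimod shares of clusters, the class ratio was -0.26 for Tnfrsf18 and -0.47 for Tnfrsf4.

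**Figure D5:**
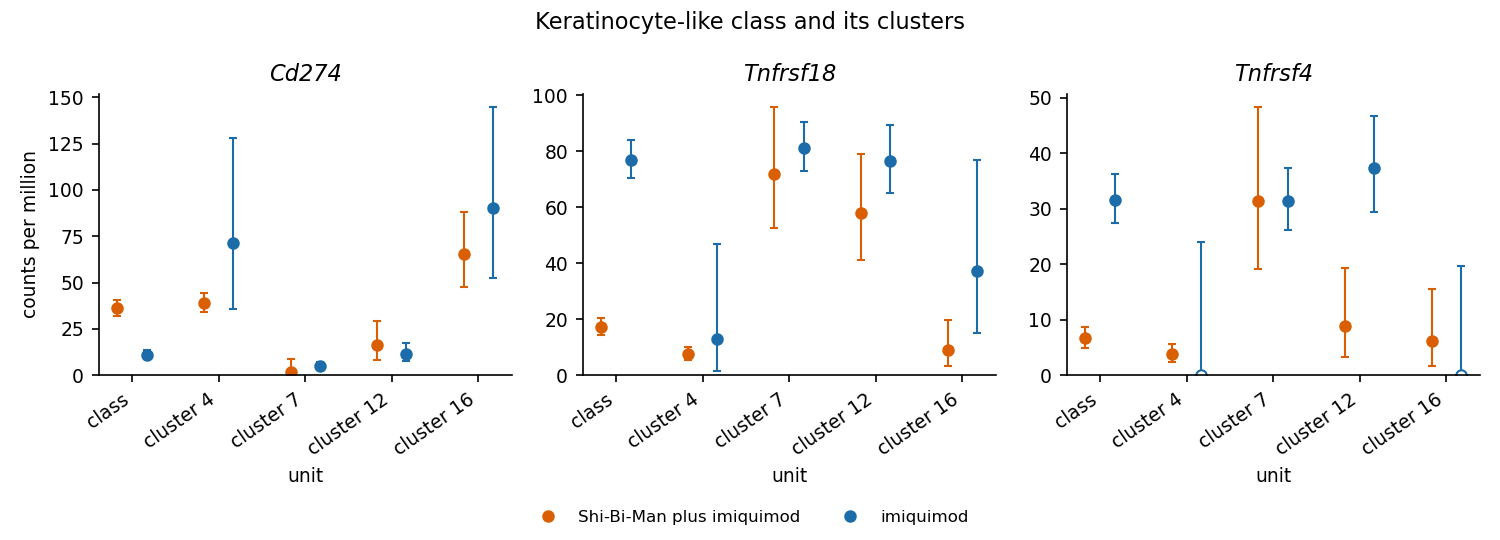
Levels of Cd274, Tnfrsf18 and Tnfrsf4 in the keratinocyte-like class and its 4 clusters, in CPM, in the combination library (orange, left of each pair) and the imiquimod library (blue, right), with exact 95% Poisson intervals and open circles at 0 counts. The class values differ while clusters 7 and 12 overlap for Tnfrsf18, and Tnfrsf4 differs in cluster 12.

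Among keratinocyte-like ligands, 11 of 19 were measured, 4 were called higher and 6 lower, over the same unequal mix of clusters. Over all genes of the class 13.8% were called higher and 22.5% lower. Inside the clusters fewer ligands were measured. The calls were 1 higher and 2 lower of 7 in cluster 4, and 2 and 0 of 7 in cluster 7. In cluster 12 these were 1 and 1 of 8, and in cluster 16 0 and 2 of 6. Over all genes 18.6% were called higher and 35.2% lower in cluster 4, and 25.0% and 10.8% in cluster 7. For clusters 12 and 16 these shares were 15.1% and 14.4%, and 19.4% and 18.3%. With so few ligands, the counts cannot be set apart from these shares. The values that follow are for the class. Nectin2, a TIGIT ligand gene, had 190.2 CPM in the combination library and 99.4 CPM in the imiquimod library (0.94, 0.80 to 1.07) and Pvr 24.8 and 14.3 CPM (0.79, 0.43 to 1.16). Tnfsf9 had 28.9 and 57.6 CPM (-0.996, -1.24 to -0.76), Icosl 3.45 and 8.48 CPM (-1.28) and Lgals9, the galectin-9 gene, 28.7 and 90.8 CPM (-1.66, -1.89 to -1.44), combination first. Pdcd1lg2 had 5 and 1 counts. Of the 16 upstream genes 0 were called higher and 2 lower in this class, Hif1a (-0.93) and Socs3 (-0.69).

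Outside keratinocytes, Tnfrsf18 was also found in sebaceous-like cells, with 21.9 CPM in the combination library and 39.6 CPM in the imiquimod library (-0.83, -1.51 to -0.24), and in the unnamed cluster 15 led by Akr1c18, with 65.5 and 119 CPM (-0.85, -1.46 to -0.31). Langerhans-like cells carried Tnfrsf9 at 108 CPM in both libraries, from 16 counts in 66 combination cells and 199 counts in 583 imiquimod cells (0.03, -0.84 to 0.73), and they held 24.3% of all Tnfrsf9 counts in the imiquimod library. Sebaceous-like cells had Cd274 in 55 of 211 cells of the combination library and 110 of 604 of the imiquimod library, a ratio of 0.42 (0.057 to 0.77). Among all genes of the sebaceous-like class 14.7% were called higher and 9.89% lower.

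Lag3, like Tnfrsf18, had most of its counts outside T and NK-like cells. The T and NK-like cells held 16.7% of its 72 counts in the combination library and 39.2% of its 102 counts in the imiquimod library, fibroblast-like cells held 31.9% and 19.6%, and keratinocyte-like cells 30.6% and 11.8%. In fibroblast-like cells it had 4.47 and 4.17 CPM (0.095, -0.83 to 1.04), combination first, well under its level in T and NK-like cells.

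Over all cells of a library, in which T and NK-like cells made up 6.22% and 22.6%, most receptor genes were lower in the combination library. Pdcd1 had 3.28 CPM in the combination library and 29.8 CPM in the imiquimod library (-3.17, -3.56 to -2.82), Icos 17.3 and 118 CPM (-2.77, -2.93 to -2.61), Tnfrsf9 7.83 and 28.9 CPM (-1.88) and Ctla4 5.24 and 14.7 CPM (-1.48). Tnfrsf4, higher in the combination library within the class, was lower over all cells, at 13.7 and 29.7 CPM (-1.12, -1.32 to -0.92). Foxp3 had 1.32 and 2.29 CPM (-0.78, -1.50 to -0.12). Cd274, which has most of its counts outside T cells, had 34.0 CPM in the combination library and 27.7 CPM in the imiquimod library (0.30, 0.15 to 0.44), and Lag3 3.52 and 3.59 CPM (-0.02, -0.48 to 0.42).

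Across 38 units, each a class, a T cell subcluster or an unnamed cluster of 1 library with at least 50 cells, the likeness of level patterns was measured by Pearson's correlation of log2(CPM + 10). Pdcd1 and Icos were each among the 3 genes most like the other (r = 0.96), and Icos was next most like Il2ra (0.96). Ctla4 was most like Cd5 and Cd6 (0.94 each), T cell surface receptor genes. Lag3 was most like Xcl1 (0.92) and Klrd1 (0.90), genes of killer lymphocytes, and Tigit was most like Klrc1 (0.89). Foxp3 and Tnfrsf4 both had members of the set among their 3, Tnfrsf4 for Foxp3 (0.75) and Ctla4 for Tnfrsf4 (0.80). Cd274 had the weakest likeness, with Itpripl1 first (0.66). These units share libraries, cells and depth, so the values only describe patterns. Counts of an overlapping gene cannot be told apart from a gene's own without the strand of counting: Gm16008, antisense to Tnfrsf18, had 13 and 34 counts in all cells, and Camta1, around Tnfrsf9, had 41 and 171 in T and NK-like cells. Gm36995, on the strand opposite Foxp3, had 8 and 5 counts in all cells. AC119228.1, antisense to Cd274, overlaps it over 11055 bases, and its counts were not read here.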

How the data were processed

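The 2 libraries of single skin cells, sequenced from the 3' end of transcripts, were compared by the treatment their labels give. The authors deposited whole-number counts for each gene in each barcode, with no normalization seen in the values. Per the submitters' processing notes the builds were mm10 and GRCm38; the aligner, the counter, its strand setting and any collapsing of molecules are not given in the sources used here. Counts were treated as independent, so intervals cover counting error only.

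Entries of 1 symbol were summed. Of the 55471 gene entries, 99.4% were in GENCODE vM21 of GRCm38, used for positions. Promoters came from RefSeq tables of GRCm38.p6. Cells needed 200 genes and at most 20% mitochondrial counts, which removed 7 and 192 barcodes by the first rule and 101 and 105 by the second. Scrublet (scanpy 1.11.5, assumed rate 0.08) marked 83 of 7946 cells (1.04%) in the combination library and 0 of 11019 in the imiquimod library, where it did not work. Both libraries were clustered together, with no integration, on 2000 variable genes that left out the 10 genes and the 93 genes of 6 wider lists, 30 principal components (20 for the T and NK-like cells) and 15 neighbours, with Leiden (leidenalg 0.10.2) at resolution 1. A cluster name required 3 fixed markers at least 2-fold higher than in other cells and found in 10% of its cells. This was necessary but not sufficient, and further checks left some clusters unnamed. Unnamed clusters 3 and 20 met it for keratinocytes (3 and 6 of 12 markers) but lie outside the keratinocyte-like class. Cluster 25 met it for T and NK cells (4 of 12). T and NK-like subclusters 5 and 6 met it for dendritic epidermal-type cells (6 and 5 of 12) and were also left unnamed. Of 26 clusters, 5 stayed unnamed.

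Counts were summed per class and library and given as CPM with exact Poisson intervals. Ratios have exact conditional binomial intervals, and shares Clopper-Pearson intervals, all at 95%. Ratios needed 30 cells in each library. Cells are not replicates, so no p-value was computed. The ratio was tested on simulated data. The 10 genes, the lists and the alternatives were chosen with earlier results of these data known. Named genes were all 10, fixed pathway genes, and per list and class the 4 with the largest ratios; several of those are given only as counts. The values of Klrg1, Ccr8 and Ikzf2 within subcluster 0, and the genes set beside Foxp3 and Pdcd1 in single cells, were chosen after the values were seen. Alternatives used edgeR 4.0.16 (TMM) and DESeq2 1.42.0 (size factors), other filters, resolutions and weights.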

Additional observations from a re-analysis of the deposited data

Results flagged for a closer look

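Tnfrsf18 and Tnfrsf4 were past 1.5-fold in opposite directions in different cell classes, with counting intervals on opposite sides of 0; the difference between classes was not tested. Tnfrsf18 had a log2 ratio of 0.60 in T and NK-like cells, -2.15 in keratinocyte-like cells, -0.83 in sebaceous-like cells and -1.30 in fibroblast-like cells, where it had 15 counts in the combination library and 35 in the imiquimod library. Tnfrsf4 had a ratio of 1.43 in T and NK-like cells and -2.24 in keratinocyte-like cells. Both genes' class ratios moved toward 0 when subsets or clusters were weighted by their imiquimod shares, to -0.085 and 0.50 in T and NK-like cells and to -0.26 and -0.47 in keratinocyte-like cells, Tnfrsf18 first.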

How the results depend on the processing

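No paired analysis was possible because each group has 1 library, and no replicate could be left out. Of 20 alternatives, 16 were planned and 4 were added after the data were seen (shared barcodes left out, the top cell left out, clusters weighted, unnamed clusters 3, 15 and 20 added to keratinocytes). The cause of the shifts was not tested beyond their construction. In T and NK-like cells the count of genes higher was 3 without cells that hold other markers and 1 with subsets weighted by imiquimod shares, where Ctla4 (-0.070), Tigit (-0.056) and Tnfrsf18 (-0.085) changed sign. The count lower was 1 with at least 500 genes per cell, doublets kept, resolution 2, the listed genes kept for clustering, TMM scaling, 5% of the all-cell profile subtracted or without shared barcodes, where Icos lay between -0.58 and -0.54, and 0 at 2-fold or with subsets weighted. Without cells that hold other markers, Icos stood at -1.23, Pdcd1 at -1.76, Tnfrsf4 at 1.72 and Ctla4 at -0.061. Of the wider T cell lists, 12 were higher and 5 lower; at 2-fold these were 6 and 2, and the lower count was 9 with at least 500 genes, 8 at resolution 2 and 14 without cells that hold other markers. Within subsets the count higher was 4 with at most 10% mitochondrial counts or at least 500 genes, 7 with doublets kept or at resolution 2, and 6 with listed genes kept. The count lower was 3 with at most 10% mitochondrial counts, doublets kept or resolution 2, and 2 at resolution 0.5 or with listed genes kept. Without cells that hold other markers both counts were 0, but 71 combination cells were left there and a ratio needed 30 in each library. Few if any subsets could be measured in that setting, so these 0 counts say nothing of differences inside subsets. Foxp3 in subcluster 0 was -0.22 with at least 500 genes. Cd274 in keratinocyte-like cells was 2.39 with doublets kept, 2.41 with listed genes kept, -1.42 at resolution 0.5, -0.28 with clusters weighted and 0.80 with the unnamed clusters added, and Tnfrsf4 there was 0.75 at resolution 0.5. Cd274 in sebaceous-like cells was 0.013 as a mean over cells. The log2 ratio of class shares was 3.41 for dendritic epidermal-type cells (2.47 as reported) and 1.59 for subcluster 0 (0.75 as reported) with at least 500 genes, and 0.31 for subcluster 0 with doublets kept. For the share of endothelial-like cells with a Cd274 count it was 2.45 after thinning to 500 counts, 1.17 after thinning to 1000 and 0.84 without thinning. Under all alternatives the values of the main results stayed within their counting interval, or 1.5 times the count, 163 times, moved past it 37 times and changed the sign of a called value 2 times, and those of single genes did so 299, 33 and 4 times in the same order. TMM and DESeq2 factors moved keratinocyte-like ratios by 0.17 each and the other classes by less than 0.1.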

Other observations

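Langerhans-like cells numbered 66 in the combination library and 583 in the imiquimod library, and 20.7% of their measured genes were called higher and 26.1% lower. Of 9 measured ligands 1 was called higher and 2 lower there. Lgals9, a TIM-3 ligand gene, had 1 count (6.74 CPM) in the combination library and 164 counts (89.3 CPM) in the imiquimod library, a ratio of -3.15 (-9.04 to -1.23). Havcr2, the TIM-3 gene, had 499 CPM in the combination library and 278 CPM in the imiquimod library (0.85, 0.47 to 1.20). Cd86 had 533 and 480 CPM (0.16, -0.20 to 0.48), Cd80 135 and 98.6 CPM (0.48, -0.29 to 1.12) and Pvr 256 and 181 CPM (0.52, -0.02 to 0.99), combination first.

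The unnamed cluster 20, led by Krt6b, S100a9 and S100a8, held 4 cells of the combination library and 254 of the imiquimod library, so no ratio is given. It had 2 Cd274 counts in the combination library and 70 counts (42.5 CPM) in 40 of the 254 cells of the imiquimod library. The unnamed cluster 15 had 51.2 CPM of Cd274 in the combination library and 24.3 CPM in the imiquimod library (1.08, 0.27 to 1.86), from 25 and 34 counts.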
